A study of Mus musculus with 4 samples.

Results

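The contractile genes of smooth muscle were followed in mouse colon through 10 genes, *Myh11*, *Mylk*, *Acta2*, *Actg2*, *Tpm2*, *Cnn1*, *Tagln*, *Smtn*, *Synpo2* and *Des*. They were found by name among the gene probes of the array, which gave 21 of 41174 probes, on 39 spots. The samples were measured on 4 dual-color arrays. The Rspo3 KO mice were Myh11CreErt2/Rspo3 fl/fl and their littermate controls Myh11CreErt2/Rspo3 +/+, so both groups carried the tamoxifen-inducible Cre that is driven by the *Myh11* promoter. All were male C57BL/6 mice aged 6 to 8 weeks, all received tamoxifen, and the colon was taken 2 weeks later, with 1 KO and 1 control mouse on each of 2 arrays (2 pairs). The sorted samples were EpCAM-positive crypt cells of male Axin2CreErt2/Rosa26-tdTomato mice, also aged 6 to 8 weeks, taken 24 h after tamoxifen. They were divided by tdTomato into Axin2+ and Axin2- cells. Cells of 3 mice were pooled, and the same 2 pools were compared on 2 arrays with the dyes reversed, which makes 1 replicate and allows no test.

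Smooth muscle contracts when myosin, phosphorylated on its light chain by a calcium-activated kinase, pulls on thin filaments of actin and tropomyosin. Calponin and transgelin lie along these filaments, smoothelin and synaptopodin 2 tie them to the cytoskeleton and to dense bodies, and desmin forms the intermediate filaments that link the contractile units. In the colon these genes are transcribed in the muscularis propria, the muscularis mucosae, vessel walls and myofibroblasts around the crypts, and many of them are switched on by serum response factor, which binds the CArG box. Cre driven by *Myh11* is meant to act in cells that transcribe *Myh11*. The arrays did not measure where it acted, and some contractile genes also gave a signal in sorted epithelial cells.

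Each channel of each array had a signal well above background on 53.1% to 60.3% of its 43379 gene spots. The targeted gene gave no check of the labels, because neither *Rspo3* probe was well above background on array 1 and the one that was on array 2 had a log2 ratio of 0.17 in KO over control. It is not known whether the probes lie in the deleted stretch, and the direction of every comparison rests on the labels of the channels. Both colon arrays lay on 1 slide and both sorted-cell arrays on another, so slide and kind of sample cannot be told apart. The labels name distal colon, while one section of the study's methods speaks of colon epithelium. All 10 contractile genes were well above background in the 4 colon channels, as were 10 of 10 fibroblast, 9 of 12 enteric neuron and glia and 3 of 4 mesothelium markers. In the 4 channels of sorted cells the counts were 5 of 10, 2 of 10, 0 of 12 and 0 of 4. Epithelial markers had 10 of 10 there. Of all 27343 genes, 14632 were well above background in the 4 colon channels. In the 4 sorted-cell channels 14039 were so, a share close to that of the contractile genes. Sorted cells also had 3 of 3 interstitial cell of Cajal, 3 of 6 pericyte, 3 of 8 endothelial and 3 of 8 leukocyte markers. They had 11 of 15 further filament and cytoskeletal genes of smooth muscle. *Kit*, which is among the Cajal markers, is also named by the study as a marker of goblet cells at the crypt base.

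The motor of the muscle separated the colon from the sorted cells. *Myh11*, the smooth muscle myosin heavy chain, had a normalised log2 level of 12.71 and 13.29 in the KO mice, 12.55 and 12.89 in the controls, 6.27 and 6.19 in the Axin2+ pool and 6.20 and 6.10 in the Axin2- pool. No sorted channel was well above background, and the 4 colon mice (12.86 ± 0.32, SD, n = 4) were at least 102-fold higher than the sorted cells. Before normalisation, the *Myh11* spot of the first KO mouse had a mean signal of 19200.2, and the spot of the Axin2+ pool on its first array 91.0 over a local background of 69.0. *Mylk*, the myosin light chain kinase, was 34.4-fold higher in colon by its brightest probe and 23.9-fold by the second, and here the sorted cells did give a signal, well above background in all 4 channels. The bound on a fold was taken against the lowest signal of any probe well above background in the same channel wherever the sorted cells lay below it.

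The proteins along the filaments and the intermediate filament had the same order. *Tagln*, which encodes transgelin (SM22), was at 12.60 and 12.91 in the KO, 12.33 and 12.70 in the control mice and between 6.09 and 6.34 in the sorted channels by the probe used in colon, which was not well above background in sorted cells and at least 85.7-fold higher in colon. The other *Tagln* probe was well above background in all 4 sorted channels (7.62 to 8.08), and its colon spots were marked on both arrays. With the marked spots kept, it was 210-fold higher in colon. Desmin (*Des*) was at least 34.9-fold and *Synpo2*, by its brightest probe, at least 35.3-fold higher. Neither was well above background in any sorted channel. The other *Synpo2* probes were at least 14.6-fold, 5.46-fold and 1.63-fold higher in colon, also without a signal well above background in sorted cells. *Tpm2*, the beta chain of tropomyosin, was at least 499-fold higher in colon by its first probe, which was well above background in 3 of 4 sorted channels, and at least 331-fold by its second, which was so in 2 of 4. By the probes used in colon, *Smtn* was the exception among these genes. It had 9.17, 9.75, 9.10 and 9.32 in colon against 7.75 to 8.04 in the sorted cells, a difference of 2.84-fold. *Cnn1* (calponin 1) had no usable value in colon because its only spot was marked as non-uniform on both colon arrays. With marked spots kept, *Cnn1* had levels of 16.17, 16.65, 15.94 and 16.18 in colon, at least 957-fold above the sorted cells, where 1 of 4 channels was well above background. Probes were also counted that were well above background in all 4 colon channels and had a usable level in every channel. This left out the *Cnn1* probe and the marked *Tagln* probe, which were well above background in 1 and 4 sorted channels. Of 17 such probes of these genes, 8 (47.1%) were well above background in no sorted channel, against 7.45% of 20724 on the whole array. Colon was higher by more than 5 log2 units for 9 (52.9%), against 0.352%. No test was made between colon and sorted cells, which differ in slide and hold 1 pool of each kind.

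**Figure D1:**
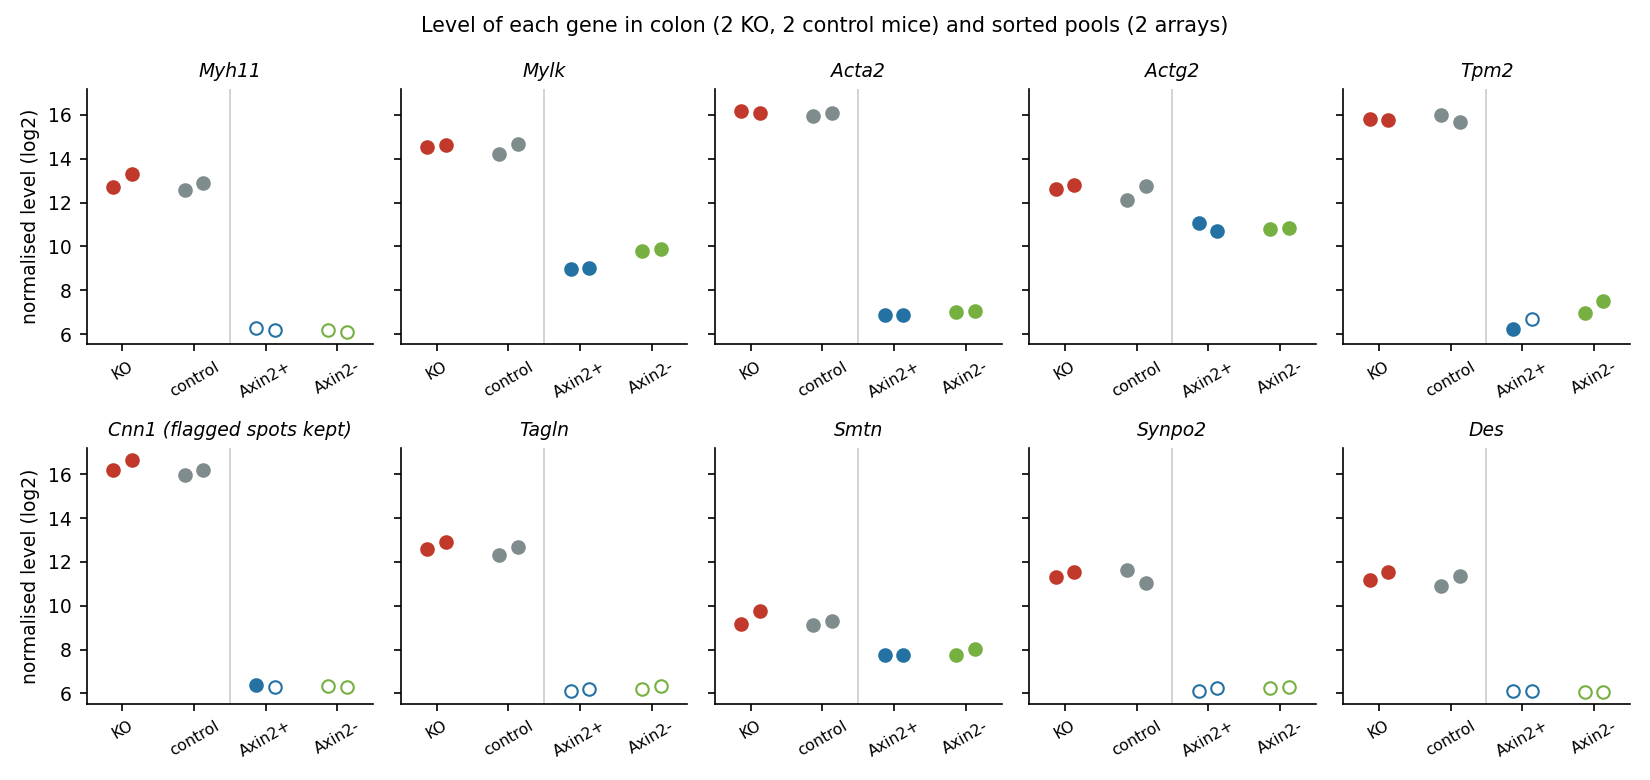
Normalised log2 level (y axis) of each contractile gene in 2 Rspo3 KO and 2 control colons and in the Axin2+ and Axin2- pools, which were each measured on 2 arrays, with 1 point per channel. Open points were not well above background. *Myh11* lay between 12.55 and 13.29 in colon and between 6.10 and 6.27 in sorted cells, and *Actg2* and *Smtn* were the genes whose sorted cells came nearest to the colon.

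The 2 actins were measured by probes that behaved unlike one another. *Acta2* encodes alpha smooth muscle actin and *Actg2* the gamma actin of enteric smooth muscle, and their coding sequences are much alike in all actins, including the cytoplasmic actins of epithelium. The brightest *Acta2* probe, at chr19:34316060-34316119 (mm9), had levels of 15.95 to 16.20 in colon and 6.85 to 7.04 in sorted cells, a difference of 560-fold that rests in colon on 1 unmarked spot of 10 per array and was 355-fold with all spots kept. A second, at chr19:34315697-34315756, was at least 108-fold higher in colon. Another, at chr19:34314826-34314866, was 7.91-fold higher in colon and well above background in all 4 sorted channels. The coding probe at chr19:34322995-34326249, a span of 3255 bases for 60 bases of probe, was instead at 12.01 to 12.88 in colon and at 12.90 to 13.46 in the sorted cells, which makes it the only *Acta2* probe with a higher mean level in sorted cells. The only *Actg2* probe, at chr6:83472853-83473179, spans 327 bases and was 3.31-fold higher in colon, with 12.11 to 12.80 against 10.72 to 11.06. The sequence of the *Acta2* coding probe is shown because it carries the sorted-cell value of this actin. Whether the *Acta2* coding probe and the *Actg2* probe bind transcripts of other actins was not tested. Their values are given below as those of the probe rather than of the gene.
Acta2 coding probe: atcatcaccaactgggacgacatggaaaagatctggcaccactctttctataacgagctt

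To ask whether the contractile genes differed between Rspo3 KO and control colon, each array gave the log2 ratio of 1 KO over 1 control mouse, and the 2 ratios were tested against 0 with limma across all 15373 genes measured. None of the 9 contractile genes measured was past an adjusted p of 0.05, a threshold that 0.241% of all genes passed, and none had an unadjusted p under 0.05, against 4.65% of all genes. None had a mean past 1.5-fold with the same sign in both pairs, against 4.33% of all genes. The mean log2 ratios lay between -0.06 for *Tpm2* and 0.28 for *Myh11*. Their 95% confidence intervals together ran from -0.60 to 0.83, so a change of the mean beyond these bounds was not in the interval of any gene, while smaller changes could not be told from 0. With 2 pairs there is no exact sign-flip test below p = 0.5, and limma's estimate of error rested mostly on the spread of all genes.

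In the motor, *Myh11* was higher in the KO mouse of both pairs, with log2 ratios of 0.15 and 0.40 (mean 0.28, standard error 0.23, adjusted p = 1.0 by limma). Its levels nevertheless overlapped, since the first KO mouse (12.71) lay below the second control (12.89). *Mylk* had ratios of 0.36 and -0.03. Its mean of 0.16 was within the spread of the pairs (SD 0.27). In the thin filament, *Actg2* had ratios of 0.50 and 0.04, *Acta2* of 0.24 and -0.01, and *Tpm2* of -0.22 and 0.10. *Tpm2* was the only gene of the 9 with a mean below 0 (95% confidence interval -0.60 to 0.49). For *Acta2*, 1 of 10 spots of the probe was free of marks on each array. With all 10 spots used, the ratios of *Acta2* were 0.07 and 0.09.

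Among the filament-associated proteins, *Tagln* had ratios of 0.27 and 0.22 and *Smtn* of 0.07 and 0.43, and these genes were higher in KO in both pairs. *Synpo2*, an actin-binding protein of the Z-disc and dense bodies, had the largest disagreement between pairs, with ratios of -0.33 and 0.48. *Cnn1*, with its marked spots kept, had 0.23 and 0.48 (mean 0.35), the highest mean among the 10 genes, and was not past the threshold either. *Des* had ratios of 0.27 and 0.21. The *Des* probe was printed on 10 spots, and the ratios of its spots had an SD of 0.06 on array 1 (10 spots) and 0.03 on array 2 (9 spots). The spread within an array was thus smaller than the distance of either *Des* ratio from 0, but the spots of 1 array share 1 pair of mice and do not replicate the comparison.

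As a list, 5 of the 9 genes were higher in KO in both pairs, none was lower in both and 4 differed in direction. Of all genes measured, 20.3% were higher in both pairs, 23.9% lower in both, and 55.8% differed in direction. The median ratio of the 9 genes was 0.24 in pair 1 and 0.21 in pair 2 (mean of the pairs 0.24), beside -0.00 and -0.02 (mean -0.01) over all genes. In none of the 9 genes did the levels of the 2 KO mice lie wholly above or below those of the 2 controls, whereas 29.5% of all genes were separated in this way. The pairs differed by a median of 0.32 log2 units for the contractile genes and 0.35 for all genes. Over all 15373 genes, the ratios of the 2 pairs had a Pearson correlation of only 0.033. Between the 2 Axin2 arrays, which measured the same pools, it was 0.92. In whole colon, a different share of muscle cells in the sample and a different amount of RNA per muscle cell cannot be told apart.

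**Figure D2:**
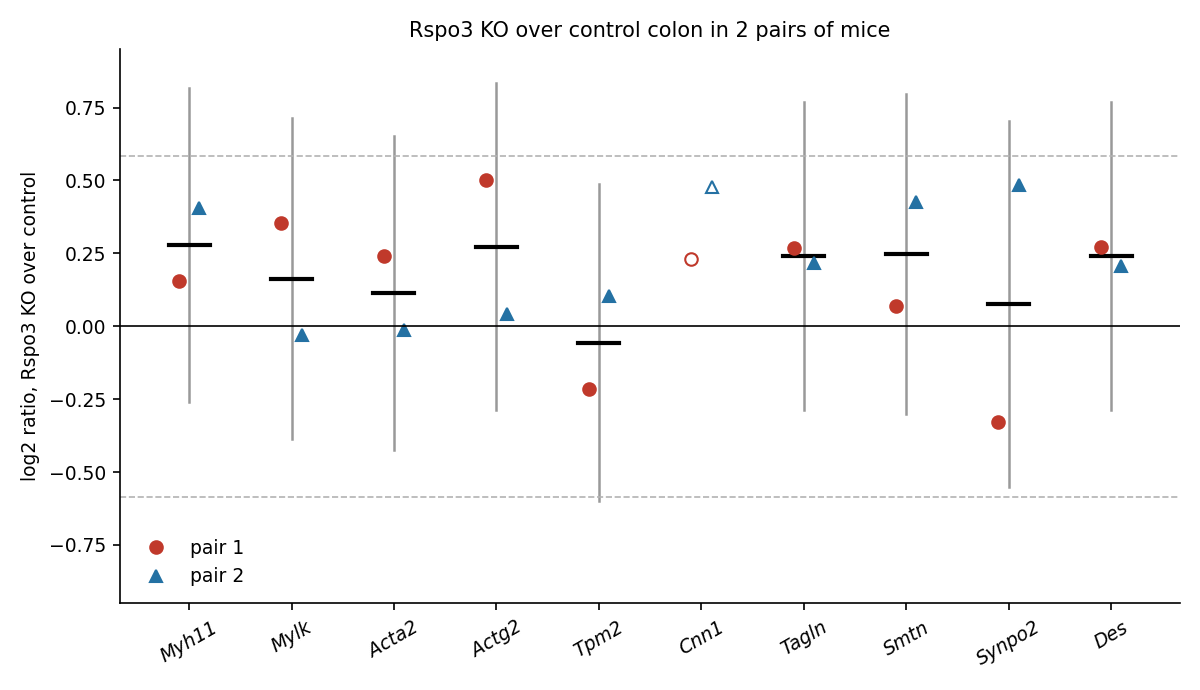
Log2 ratio of Rspo3 KO over control colon (y axis) for each contractile gene, with circles for pair 1, triangles for pair 2, black bars for the mean and grey lines for limma's 95% confidence interval; dashed lines mark 1.5-fold. Every interval crosses 0, the means run from -0.06 (*Tpm2*) to 0.28 (*Myh11*), and *Cnn1* is drawn open because its spots were marked as non-uniform.

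Probes of the same gene did not always give the same pair difference. The coding probe of *Acta2* had ratios of 0.71 and 0.13, the second *Acta2* probe -0.01 and 0.53, and a further one 0.13 and -0.01. In *Synpo2*, 2 probes had the sign of the gene's value, -0.33 and 0.48 by one and -0.40 and 0.59 by the other. Another *Synpo2* probe, at chr3:122779807-122779866, had the opposite signs, 0.48 and -0.31, and the last one 0.22 and 0.15. The second *Mylk* probe had 0.30 and -0.04, beside 0.36 and -0.03 for the first, while the second *Tpm2* probe had -0.04 and -0.08, with the opposite sign to the first in pair 2. A second *Tagln* probe, marked on both arrays, had -0.31 and 0.50 with its spots kept, in place of the 0.27 and 0.22 of the probe used. One further probe each of *Acta2* and *Mylk*, both designed on cDNA clones, was at or near background: the *Acta2* clone probe was well above it in 1 of 8 channels and the *Mylk* clone probe in 0.

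**Figure D3:**
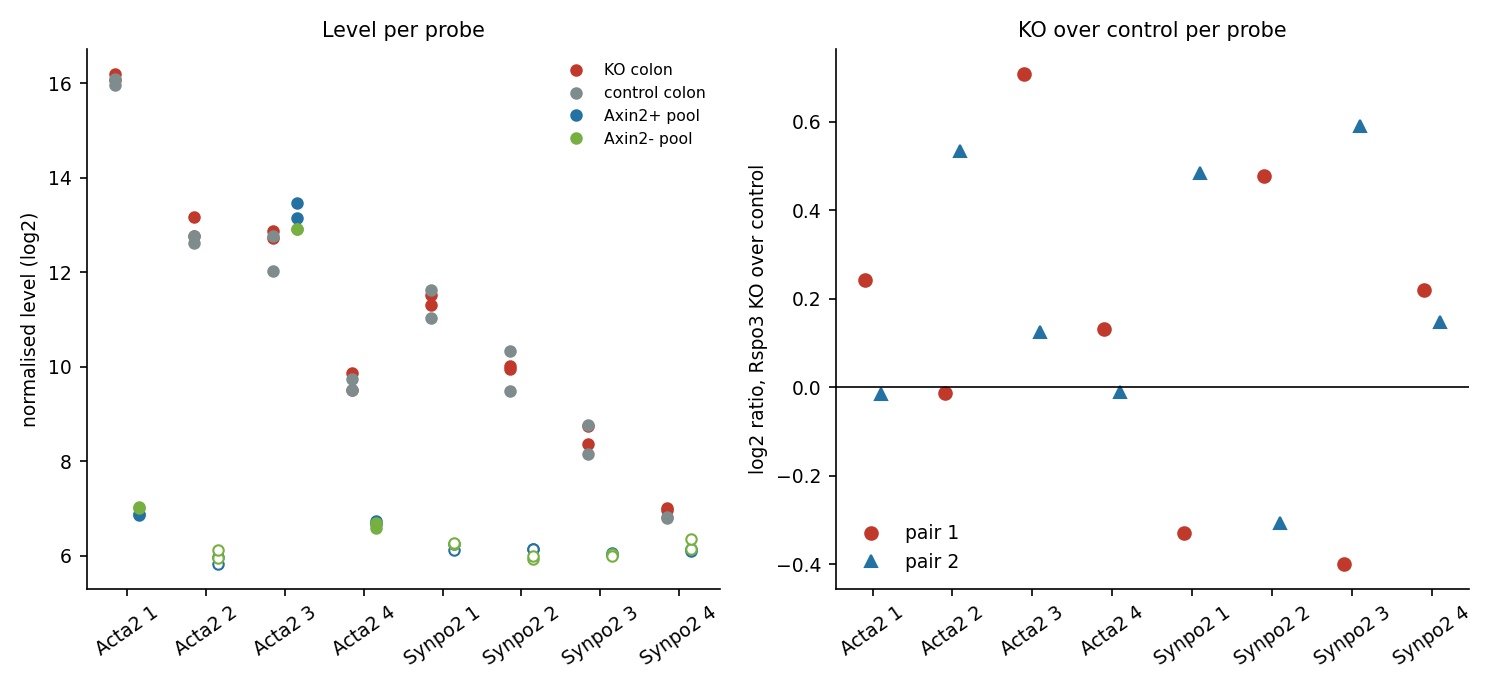
Left, normalised log2 level of 4 *Acta2* and 4 *Synpo2* probes in colon (left points of each column) and sorted cells (right points, open where not well above background); right, log2 ratio of Rspo3 KO over control for the same probes in pair 1 and pair 2. Probes are numbered by colon level, *Acta2* 3 is the coding probe with 12.90 to 13.46 in sorted cells, and *Synpo2* 2 has signs opposite to *Synpo2* 1 and 3.

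The other genes of the contractile apparatus gave a similar picture. Of 12 measured genes among 15 further filament and cytoskeletal genes of smooth muscle, none passed limma's threshold, 6 were higher in both pairs and none lower in both, with medians of 0.10 and 0.23. Their means ran from -0.04 for *Lmod1*, leiomodin 1, which nucleates actin (-0.26 and 0.18), to 0.35 for *Cald1*, caldesmon, which binds actin and tropomyosin (0.91 and -0.21). All 12 regulators of contraction were measured, with medians of 0.18 and 0.31, 7 higher in both pairs and none lower in both. The highest was *Gucy1a1*, a subunit of the nitric oxide receptor guanylate cyclase, with 0.64 and 0.52 (limma, unadjusted p = 0.036, adjusted p = 0.98).

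Channels, pumps and receptors (6 of 10 measured) had medians of 0.05 and -0.00, from *Itpr1*, the inositol trisphosphate receptor (0.05 and -0.41), to *Pln*, phospholamban (0.04 and 0.45). Transcription factors of the muscle programme (7 of 8 measured) had medians of 0.14 and -0.17. *Myocd*, which encodes the coactivator of serum response factor, had ratios of 0.70 and -0.30, and *Gata6* of -0.04 and -0.79. No gene of these 4 lists passed the threshold in either direction.

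Markers of other cells of the colon wall were read beside the contractile genes. The 10 fibroblast markers had medians of 0.44 and 0.41, with 5 higher in both pairs and none lower in both, from *Col1a2*, a chain of type I collagen (-0.13 and 0.56), to *Fn1*, fibronectin (0.68 and 0.47). The 4 mesothelium markers had medians of 1.43 and 0.28, and for 3 of them the mean was past 1.5-fold with the same sign in both pairs, as for 4.33% of all genes in either direction. *Msln*, mesothelin, had ratios of 1.59 and 0.45, and *Wt1* of 1.35 and -0.16. Enteric neuron and glia markers (10 of 12 measured) had medians of 0.21 and 0.18, from *S100b* (-0.29 and 0.21) to *Nos1* (0.17 and 0.42). Interstitial cells of Cajal gave 0.23 and -0.37 over 3 genes, from *Kit* (-0.04 and -1.0) to *Etv1* (0.52 and -0.18). Epithelial markers (6 of 10 measured) had medians of 0.17 and -0.07, from *Cdh1*, E-cadherin (0.24 and -0.36), to *Cdx2*, a transcription factor of the intestinal epithelium, which rose (2.33 and 1.91, adjusted p = 0.020 by limma), a call that was lost under 4 of the other settings. Whether the share of muscle wall in the samples had a part in the ratios of the contractile genes was not tested.

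**Figure D4:**
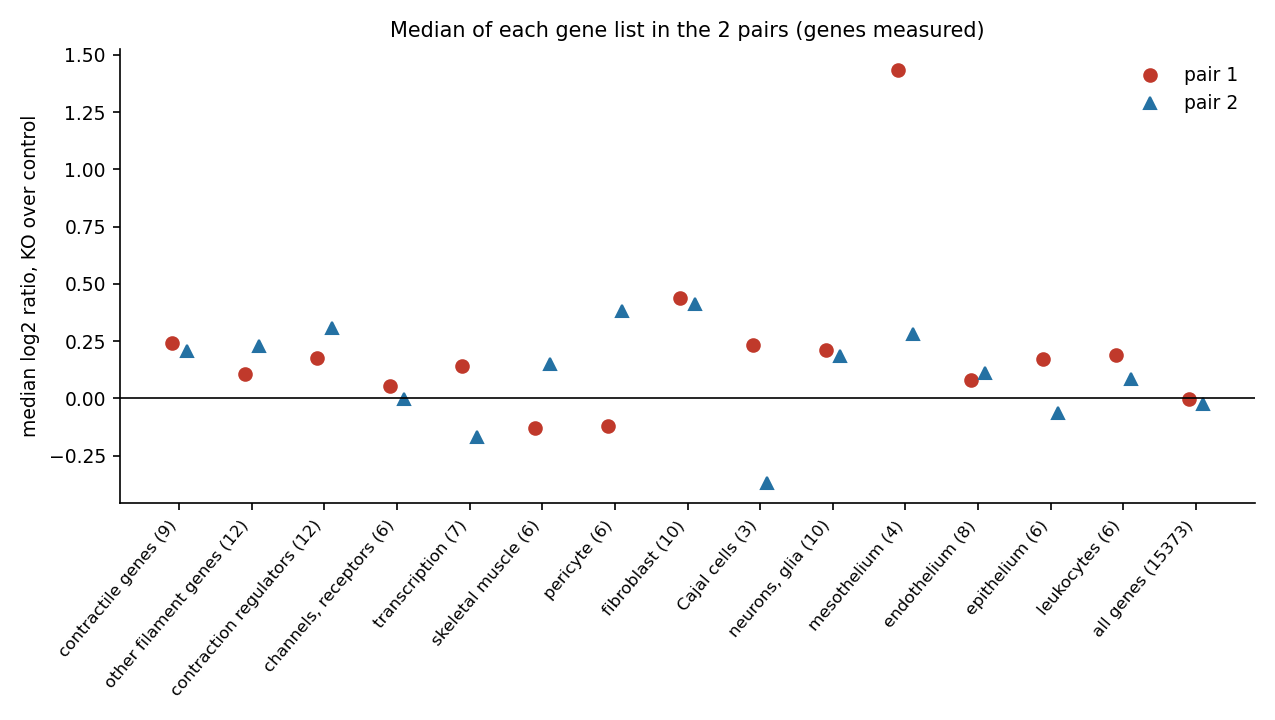
Median log2 ratio of Rspo3 KO over control (y axis) in pair 1 (circles) and pair 2 (triangles) for the contractile genes, 13 other gene lists and all 15373 genes, with the number of genes measured in brackets. The contractile genes lie at 0.24 and 0.21, the fibroblast markers at 0.44 and 0.41, and the mesothelium markers at 1.43 and 0.28.

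Sorted epithelial cells should hold little muscle, and the contractile genes were therefore examined for what remained and for how it was divided between Axin2+ and Axin2- cells. In these cells 6 genes were measured, *Acta2* (by its coding probe), *Actg2*, *Mylk*, *Smtn*, *Tagln* and *Tpm2*. *Myh11*, *Des*, *Cnn1* and *Synpo2* lacked a signal well above background on at least 1 array and had no ratio. Of the 6 measured, 2 (*Mylk* and *Tpm2*) had a mean past 1.5-fold lower in Axin2+ cells with the same sign on both arrays and none had one past 1.5-fold higher, against 6.92% lower and 7.87% higher among 15880 genes. The median over the 6 genes was -0.09 on array 1 and -0.29 on array 2.

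*Mylk* had levels of 9.22 and 9.15 in the Axin2+ pool and 10.16 and 10.18 in the Axin2- pool. The log2 ratios of *Mylk* were -0.94 and -1.03, a difference of 1.98-fold, and its other probe gave -0.85 and -0.86, so the probes and the dye orders gave like values. *Tpm2* had levels of 6.23 and 6.69 in Axin2+ and 6.97 and 7.51 in Axin2- cells, close to background, with log2 ratios of -0.74 and -0.82. The second *Tpm2* probe was not well above background in Axin2+ cells on either array and was at least 1.62-fold lower there. It thus passed the filter on dim probes only through the Axin2- channels, as the first probe did on array 2. With both channels needed, *Tpm2* had no ratio, and 1 of 5 genes (*Mylk*) was past 1.5-fold. The size of the *Tpm2* difference depends on the background correction, since the ratio deposited by the extraction software gave a mean of -2.84 in place of -0.78. Both probes lie in the coding sequence of *Tpm2*, at chr4:43532150-43532300 and chr4:43531276-43531335, and are shown because both gave the lower value in Axin2+ cells.
Tpm2 first probe: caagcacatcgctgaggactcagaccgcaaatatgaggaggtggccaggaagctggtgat
Tpm2 second probe: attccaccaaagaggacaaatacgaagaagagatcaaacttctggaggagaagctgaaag

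The remaining genes did not pass 1.5-fold. *Tagln* had log2 ratios of -0.21 and -0.31, *Smtn* of 0.02 and -0.28, and the *Actg2* probe of 0.27 and -0.10. The *Acta2* coding probe had 0.56 and 0.25, while the *Acta2* probe that was brightest in colon had -0.12 (SD 0.10 over 9 spots) and -0.18 (SD 0.08 over 7 spots), so the sign for *Acta2* depended on the probe. Of the other muscle genes, *Fhl1*, a LIM-domain protein, was lower in Axin2+ cells with -2.24 and -2.49. *Srf*, serum response factor itself, was higher with 0.96 and 0.41, and *Gata6* with 0.82 and 0.49. These 3 were named after their values were seen, as genes of the muscle lists whose mean was past 1.5-fold with the same sign on both arrays. Markers of stroma that could be measured in the sorted cells also had ratios below 0, with medians of -0.37 and -0.30 over 2 fibroblast markers and -0.20 and -0.19 over 2 neuron and glia markers. Whether residual stroma had a part in the values of *Mylk* and *Tpm2* was not tested.

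**Figure D5:**
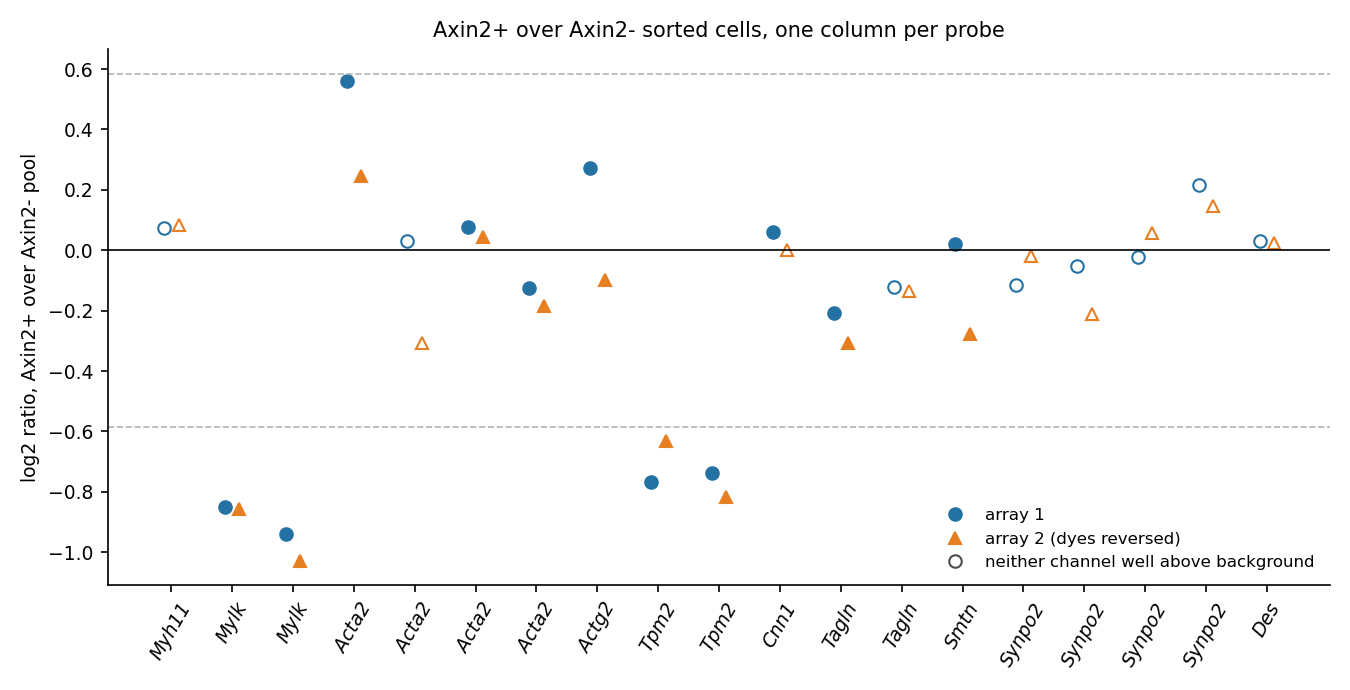
Log2 ratio of Axin2+ over Axin2- cells (y axis) on array 1 (circles) and array 2 (triangles, dyes reversed) for every probe of the contractile genes that was well above background in all 4 colon channels. Open points had neither channel well above background, dashed lines mark 1.5-fold, and the 2 probes of *Mylk* and the 2 of *Tpm2* are the ones below the lower line, from -0.63 to -1.03.

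The promoters of the contractile genes were searched for the CArG box, the binding sequence of serum response factor, in RefSeq sequence of assembly GRCm38.p6 from 250 bases before to 50 bases after the start of the gene. The table held 7 of the 10 promoters (*Acta2*, *Cnn1*, *Des*, *Mylk*, *Smtn*, *Synpo2* and *Tpm2*) and had no entry for *Myh11*, *Actg2* and *Tagln*. A full CArG box, CC and GG around 6 bases of A or T, was found in 0 of 7, against 1.63% of 32851 promoters of the same length. The motif is its own reverse complement, so 1 strand covers both. With 1 other base allowed among the 6, 1 of 7 promoters held it (14.3%), against 9.98% of all. This was *Acta2*, with 2 such boxes that began 84 and 34 bases before the start, in capitals in the stretch chr19:34255383-34255472 (GRCm38.p6, minus strand), which is shown because it was the only match among these genes. A match describes letters and not binding, and a missing match says only that the window did not hold them.
Acta2 promoter: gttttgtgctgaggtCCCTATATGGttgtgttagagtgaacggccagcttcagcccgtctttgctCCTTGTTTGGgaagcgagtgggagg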

How the data were processed

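RNA was labelled, hybridised to 4 dual-color Agilent whole mouse genome arrays and scanned by the authors, who extracted the images with Feature Extraction 11.5.1.1 (protocol GE2_1105_Oct12). The authors deposited for every spot a mean signal intensity and a background intensity per dye and a log10 ratio (Cy5 against Cy3), which the series table repeats. The software's p-values were not used. Samples were grouped by the channel labels. The contractile genes and the 13 other lists (114 genes) were chosen with earlier results of these data known.

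With limma 3.58.1 (R 4.3.3), intensities were corrected by normexp (offset 50), leaving out spots whose background was an outlier (66 and 6 on the Rspo3 KO arrays), and log2 ratios were normalised by loess. Control spots and spots marked as outliers were not used. Spots of a probe were averaged. A gene took its brightest probe per experiment, provided that on both arrays over 50% of the probe's spots were well above background in 1 or both channels. Ratios were tested against 0 by lmFit and eBayes with Benjamini-Hochberg adjustment over all genes, with 1 residual and 6.76 prior degrees of freedom. The test was checked on simulated data in which the planted changes were larger than any mean ratio of the contractile genes. Whether it could find changes as small as theirs was not checked. Levels per channel were set on 1 scale over the 4 arrays by Aquantile after loess. The number of arrays limits the precision.

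Probe names came from the Rspo3 KO array files through a RefSeq table (GRCm38.p6), which named 33728 probes, while 7446 kept the file's name. The Axin2 files name 4591 spots differently and list 20 probes of the contractile genes in place of 21. Positions are mm9, per the file headers. Genes named were the 10 contractile genes, of each other list the highest and lowest mean ratio in Rspo3 KO, and the 6 genes nearest by their 4 ratios to the median of the contractile genes, and some results are not reported here. Alternatives changed the source of the ratios (software values, series table), the background correction (none, offset 16, fitted to all spots), the centring (median), the filter on dim probes (none, or both channels needed), the averaging of probes, the arrays (1 dropped, or 4 fitted with a term for dye), the fold (2) and, added after seeing the data, the handling of outlier spots.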

Additional observations from a re-analysis of the deposited data

How the results depend on the processing

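The count of contractile genes past limma's threshold in Rspo3 KO was 0 under every other setting tried, and the count past 1.5-fold was 0 as well. With 1 array left out limma could not be fitted. Over all genes, the number past the threshold ran from 0 with no filter on dim probes to 281 with a dye term over 4 arrays, beside 37 as reported. The counts were 131 with the software's ratios and with the series table, 127 with offset 16, 71 without background correction, 1 with all spots in the background fit, 8 with median centring and 5 with the mean over probes. The median ratio of the contractile genes in Rspo3 KO (0.24) was 0.28 with median centring and 0.20 with outlier spots kept, which adds *Cnn1*. It was 0.21 to 0.24 with 1 pair left out. The Axin2 median (-0.19) was -0.35 with the software's ratios and with the series table and -0.020 with no filter on dim probes, which adds the 4 genes at background. It was -0.29 without array 1. Without array 2 it was 0.021, but over 7 genes, since *Cnn1* then passed the filter. The 6 genes of the main setting had a median of -0.09 on array 1, so the direction turned with the set of genes. The count of genes past 1.5-fold in Axin2 (2) was 1 with median centring, where *Tpm2* remained and *Mylk* kept its mean (-0.98) but had opposite signs on the arrays (0.10 and -2.06), 1 with the filter on both channels (*Mylk*), 0 past 2-fold and 2 with either array left out. No contractile gene measured in Rspo3 KO turned its sign or passed the threshold under a setting that used both pairs. *Cdx2* lost its call with all spots in the background fit, median centring, no filter on dim probes and the mean over probes (adjusted p = 0.25, 0.67, 0.49 and 0.061), and *Msln* gained one with the dye term (0.047). Signs turned with all spots in the background fit for *Etv1* (-0.0051), *Myocd* (-0.12), *Cldn5* (0.13) and *S100b* (0.056), with median centring for *S100b* (0.024) and *Lmod1* (0.0096), and with the mean over probes for *Kcnj8* (0.051). The cause was not tested. The reported test is itself within pairs, since each array's ratio compares 1 KO with 1 control mouse. Beyond that, no paired analysis was possible because no term for the pair can be added to such ratios. Genes near background limit the sorted-cell ratios.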

Other observations

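Markers of cells that share the muscle wall and its vessels were also measured in Rspo3 KO colon. Pericyte markers (6 genes) had medians of -0.12 and 0.38 in the 2 pairs, from *Kcnj8* (-0.26 and -0.05) to *Abcc9*, a subunit of the potassium channel of mural cells (0.50 and 0.88, limma adjusted p = 0.79). Endothelial markers (8 genes) had medians of 0.08 and 0.11, from *Cldn5*, a tight junction protein (-1.24 and 1.1), to *Vwf*, von Willebrand factor (-0.10 and 0.89). Skeletal muscle markers (6 of 8 measured) had medians of -0.13 and 0.15. *Myh2* was the highest (0.15 and 0.23), and *Tnnt3*, fast skeletal troponin T, the lowest (-0.72 and -0.77, adjusted p = 0.63). Leukocyte markers (6 of 8 measured) had medians of 0.19 and 0.09, with *Adgre1* of macrophages the highest (0.72 and 0.66). None of these genes passed limma's threshold.

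The genes whose 4 log2 ratios lay nearest to the median of the 6 contractile genes measured in both experiments (0.25 and 0.07 in Rspo3 KO, -0.09 and -0.29 in Axin2) were *Notch4*, *Spata6*, *Ppp6c*, *Brap*, *Chchd4* and *Tpra1*, at Euclidean distances of 0.07 to 0.09 over these 4 ratios.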
